A study of Homo sapiens with 12 samples.

Results

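The 38 genes described here were expressed genes with lower read counts in both groups of DU145 cells that had received the DNA-demethylating drug decitabine. They were chosen by measured values, from the 26341 genes of the deposited table. Each gene had to average at least 2 CPM (the count over the library's total, times 1000000) in the vehicle group. All 6 decitabine-treated libraries had to lie below all 6 libraries without decitabine, with a mean of at most 0.7 of the other mean. Of the 12926 genes at that vehicle level, 300 had all 6 decitabine libraries below the other 6, and 563 had them above. The ratio left 39 of the 300. The rule also dropped antisense RNAs, certain gene families and a few named genes by symbol, which removed 1 of the 39, the antisense RNA ITGB2-AS1. Just inside the ratio lay KIAA1211L (0.698), ANXA2R (0.690) and FAM228B (0.688), and just outside lay CA11 (0.703), KCTD19 (0.705) and LHFPL4 (0.707).

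DU145 is an established human prostate cancer line, derived from a metastasis to the central nervous system. The study compared 4 groups of 3 libraries: DACTPL (2 nM triptolide with decitabine), DAC (33 nM decitabine alone), TPL (2 nM triptolide alone) and Ctrl (the DMSO vehicle). The drugs were given daily for 3 days and the cells then grew without drug for 17 days, so that RNA was taken at 20 days. The labels disagree on decitabine in DACTPL, with 33 nM in the sample characteristics and 3 nM in the treatment protocol. Libraries held between 26.4 M and 47.02 M expected counts, and the labels do not say whether replicates were separate cultures, so that p-values reflect only how these libraries differ and the spread may be technical.

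Decitabine is a cytosine analogue that is built into new DNA and traps DNA methyltransferases there, so that CG dinucleotides (CpG sites) lose methylation as cells divide. Methylation of CpG-rich promoters is associated with silence, and genes that gain expression are the usual readout of the drug. Triptolide binds the XPB helicase subunit of the general transcription factor TFIIH and at sufficient dose blocks the start of transcription. The genes below are those whose counts went the other way under decitabine.

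Since decitabine acts at CpG sites, the sequence around the start of 4 members is shown. They include TMC4, with the lowest ratio of the 38, and PADI1, with the next. The others are TSPAN1 and TRNP1, the most abundant. TSPAN1 was the only member that edgeR called in a triptolide comparison with all 12 libraries and no replicate block. Each run covers 250 bases before to 50 after the RefSeq start on GRCh38.p14 (not the hg19 of the counts), 5′ to 3′ on the gene's strand, with each CG in capitals.
TMC4 (chr19:54173111-54173410, minus strand): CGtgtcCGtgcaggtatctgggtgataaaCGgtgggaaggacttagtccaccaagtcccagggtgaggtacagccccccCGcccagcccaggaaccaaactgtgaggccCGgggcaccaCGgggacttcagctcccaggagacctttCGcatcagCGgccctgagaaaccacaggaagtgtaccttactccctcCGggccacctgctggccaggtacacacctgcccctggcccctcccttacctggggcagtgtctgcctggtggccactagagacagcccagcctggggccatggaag
PADI1 (chr1:17204878-17205177, plus strand): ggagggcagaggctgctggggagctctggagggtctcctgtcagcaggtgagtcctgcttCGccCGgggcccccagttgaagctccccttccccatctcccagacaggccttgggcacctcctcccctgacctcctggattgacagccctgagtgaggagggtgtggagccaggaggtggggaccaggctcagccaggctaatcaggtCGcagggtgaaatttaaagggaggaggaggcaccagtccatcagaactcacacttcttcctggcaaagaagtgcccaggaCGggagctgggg
TSPAN1 (chr1:46174837-46175136, plus strand): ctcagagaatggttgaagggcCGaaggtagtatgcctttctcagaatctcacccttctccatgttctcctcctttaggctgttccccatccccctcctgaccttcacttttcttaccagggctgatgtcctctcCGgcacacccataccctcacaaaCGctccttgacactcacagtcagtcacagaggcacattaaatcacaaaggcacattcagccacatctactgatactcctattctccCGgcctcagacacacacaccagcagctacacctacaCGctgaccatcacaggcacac
TRNP1 (chr1:26993442-26993741, plus strand): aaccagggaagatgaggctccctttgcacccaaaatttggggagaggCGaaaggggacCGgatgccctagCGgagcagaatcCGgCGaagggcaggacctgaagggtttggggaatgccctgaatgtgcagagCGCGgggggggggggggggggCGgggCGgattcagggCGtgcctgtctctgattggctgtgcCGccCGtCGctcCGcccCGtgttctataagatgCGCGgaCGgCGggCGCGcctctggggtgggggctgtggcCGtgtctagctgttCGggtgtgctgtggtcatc
The windows hold 9 CG in TMC4, 4 in PADI1, 5 in TSPAN1 and 23 in TRNP1. The observed over expected CpG ratio, which sets the CG count against what the window's C and G content would give, was 0.29 in TMC4, 0.14 in PADI1, 0.30 in TSPAN1 and 0.76 in TRNP1. A promoter window was at hand for 23 of the 38 members (60.5%), so a comparison of these windows with other genes is void.

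CpG content could be compared at the transcripts' own starts, over the first 300 bases of the GENCODE transcripts carrying a gene's RefSeq accessions, which 37 of the 38 members had (35 by accession, 2 by symbol). This measure was added after the promoter windows had been read. It covers spliced transcript sequence, which can run across exon joins and leaves out the bases before the start. The 2 measures can part in either direction. ILDR1 had 0.39 in its transcripts and 0.875 in its promoter window, and OXTR had 0.83 and 0.52. The members' median ratio was 0.59, against 0.76 for 12701 other genes at the same vehicle level. A ratio under 0.6 was found in 21 members (56.8%), against 26.5% of the other genes. Among genes under 10 CPM in Ctrl the shares were 60.9% of 23 members and 39.9% of 2681 other genes, and from 10 CPM upward they were 7 of 14 members and 22.9% of 10020 other genes. For genes higher in both decitabine groups by the mirrored rule, the share was 38.9% of 175. The lowest ratios among members were those of TSPAN1 (0.06), IL31RA (0.11) and SLAMF7 (0.14), and the highest were those of KIAA1211L (0.99), BSPRY (0.94) and ANXA2R (0.94), so that CpG-poor and CpG-rich starts were both present. These shares are descriptions of a chosen list, with no test.

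**Figure D1:**
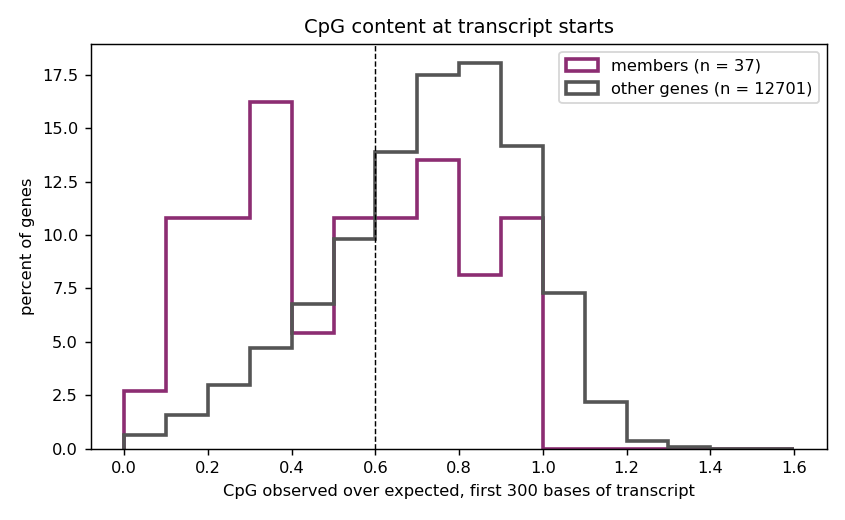
Share of genes (percent, vertical axis) by the CpG observed over expected ratio of the first 300 bases of their transcripts (horizontal axis), for 37 members and 12701 other genes with at least 2 CPM in Ctrl. The dashed line marks 0.6, with 56.8% of members and 26.5% of other genes below it.

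The members ranged in Ctrl from 2.03 CPM (DMGDH) to 289 CPM (TRNP1), with a median of 6.82 CPM, and 24 of the 38 were under 10 CPM. Their ratio of the decitabine mean to the other mean ranged from 0.436 to 0.698 with a median of 0.627, and 5 members were at 0.5 or less. The fall was thus partial throughout: the lowest count in any library was 20, in PSG3. Summed over the members other than TRNP1, the libraries held 323 to 343 CPM in DACTPL, 278 to 343 CPM in DAC, 528 to 575 CPM in TPL and 480 to 515 CPM in Ctrl. In these bulk samples, fewer cells expressing a gene and less RNA per cell cannot be told apart. In the deposited TPM, which scale by transcript length, the 6 decitabine libraries lay below the other 6 for 29 members and overlapped them for 9 (UNC5CL, FOXL1, OXTR, LAMA2, ILDR1, ITGB3, MST1L, PRICKLE2 and C2orf15).

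Both decitabine comparisons were used by the rule and are given as descriptions; they share no library. The median log2 fold change of the members was -0.73 in DACTPL vs TPL, with a range of -1.24 to -0.50, and -0.69 in DAC vs Ctrl, with a range of -1.29 to -0.34. Over all 15890 genes tested, the median was 0.01 in both. Taken alone, a ratio of at most 0.7 was met by 33 members in DACTPL over TPL and by 33 in DAC over Ctrl. None of the 38 was among the 704 genes of the z-score list that the authors deposited, where the deposited table holds 26341 genes. How the list was drawn up was not examined, so the absence is only a description and nothing is drawn from it.

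**Figure D2:**
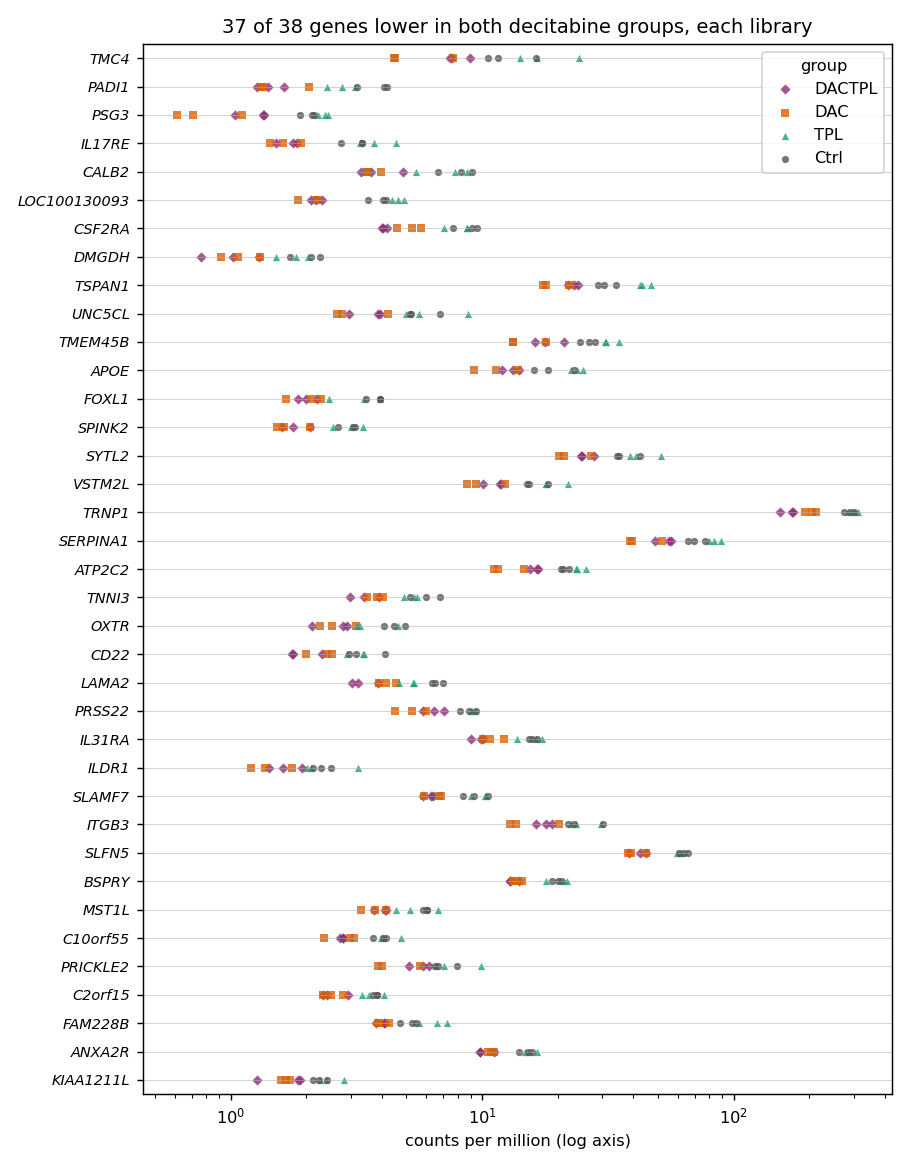
CPM of 37 of the 38 members in each of the 12 libraries (log axis), ordered by ratio from TMC4 (0.436) at the top to KIAA1211L (0.698). Diamonds are DACTPL, squares DAC, triangles TPL and circles Ctrl; the decitabine symbols lie left of the others in every row, as the rule requires.

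The members are ordered below by roles assigned after their values were seen. A group of 7 acts in membranes and vesicle traffic and included the lowest ratio. TMC4, a transmembrane channel-like protein of epithelia described as a chloride channel, had 7.44, 7.62 and 8.99 CPM in DACTPL, 4.48, 4.51 and 7.63 CPM in DAC, 16.6, 14.1 and 24.2 CPM in TPL, against 11.5, 10.6 and 16.3 CPM in Ctrl. Its TPL and Ctrl values overlapped, and replicate 3 of TPL, DAC and Ctrl was the highest of its group. TSPAN1, a tetraspanin of epithelial membranes, had 23.96, 21.9 and 23.1 CPM in DACTPL, 17.5, 17.9 and 22.1 CPM in DAC, 42.3, 43.4 and 47.1 CPM in TPL, against 29.02, 30.5 and 34.2 CPM in Ctrl. All 3 TPL values exceeded all 3 Ctrl values, whereas DACTPL and DAC differed less and overlapped. ATP2C2, a Golgi calcium and manganese pump of secretory epithelia, had 16.5, 15.6 and 16.7 CPM in DACTPL, 11.5, 11.1 and 14.7 CPM in DAC, 23.7, 23.95 and 25.8 CPM in TPL, against 22.1, 20.7 and 20.9 CPM in Ctrl. It was the only member with all 3 DACTPL values above all 3 DAC values. SYTL2, which tethers secretory vesicles through RAB27, averaged 25.8 ± 1.71 CPM in DACTPL, 22.8 ± 3.82 in DAC, 43.7 ± 6.74 in TPL and 37.3 ± 4.51 in Ctrl (mean ± SD, n = 3 in each group, here and below). TMEM45B, a transmembrane protein, averaged 18.4 ± 2.5 CPM in DACTPL, 14.8 ± 2.71 in DAC, 32.3 ± 2.46 in TPL and 26.4 ± 1.87 in Ctrl. Both had higher means in TPL than in Ctrl and overlapped between DACTPL and DAC. ILDR1, a protein of tricellular tight junctions, averaged 1.66 ± 0.26 CPM in DACTPL, 1.44 ± 0.29 in DAC, 2.44 ± 0.67 in TPL and 2.31 ± 0.19 in Ctrl, and its highest decitabine value (1.93 CPM) lay close to its lowest other value (2.01 CPM). BSPRY, a B-box and SPRY domain protein, averaged 13.3 ± 0.66 CPM in DACTPL, 13.7 ± 0.65 in DAC, 20.3 ± 2.04 in TPL and 19.9 ± 0.82 in Ctrl.

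The secreted proteins, proteases and their inhibitors numbered 7. SERPINA1, alpha-1 antitrypsin, the inhibitor of neutrophil elastase, had 56.6, 48.5 and 55.4 CPM in DACTPL, 39.4, 38.7 and 52.1 CPM in DAC, 83.7, 79.8 and 88.95 CPM in TPL, against 69.4, 66.1 and 76.7 CPM in Ctrl. The Ctrl values lay below the TPL values and above those of both decitabine groups. APOE, the lipid carrier of remnant lipoproteins, had 13.2, 12.04 and 14.1 CPM in DACTPL, 9.27, 11.4 and 13.8 CPM in DAC, 23.9, 22.5 and 25.1 CPM in TPL, against 16.1, 18.2 and 23.2 CPM in Ctrl. Its Ctrl replicate 3 (23.2 CPM) lay within the TPL range and the other 2 below it. PRSS22, the serine protease tryptase epsilon, averaged 6.45 ± 0.62 CPM in DACTPL, 5.24 ± 0.73 in DAC, 9.18 ± 0.18 in TPL and 8.82 ± 0.63 in Ctrl. VSTM2L, a secreted immunoglobulin-domain protein, averaged 11.2 ± 1.0047 CPM in DACTPL, 10.2 ± 1.86 in DAC, 19.2 ± 2.29 in TPL and 16.3 ± 1.81 in Ctrl. The rest of the group was lowly expressed. SPINK2, a trypsin inhibitor known from the testis and epididymis, averaged 1.81 ± 0.23 CPM in DACTPL, 1.74 ± 0.29 in DAC, 2.97 ± 0.41 in TPL and 2.95 ± 0.25 in Ctrl. PSG3, a pregnancy-specific glycoprotein of the placenta, averaged 1.25 ± 0.18 CPM in DACTPL, 0.8099 ± 0.26 in DAC, 2.35 ± 0.11 in TPL and 2.05 ± 0.14 in Ctrl, and reads shared with other PSG genes make its level uncertain. MST1L, a relative of macrophage-stimulating protein, averaged 3.998 ± 0.24 CPM in DACTPL, 3.74 ± 0.43 in DAC, 5.46 ± 1.1 in TPL and 5.96 ± 0.13 in Ctrl, and reads shared with near-identical genes make its level uncertain. None of its 12 estimated counts was a whole number (within 0.005), as was also so for SLAMF7, TMEM45B and TRNP1.

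Another 8 members are cytokine or immune receptors or act in their signalling. IL17RE, the receptor chain specific for the epithelial cytokine IL-17C, had 1.77, 1.51 and 1.84 CPM in DACTPL, 1.44, 1.62 and 1.898 CPM in DAC, 3.25, 3.71 and 4.53 CPM in TPL, against 3.34, 2.74 and 3.32 CPM in Ctrl. CSF2RA, the ligand-binding chain of the GM-CSF receptor, had 4.19, 3.98 and 4.03 CPM in DACTPL, 5.25, 5.71 and 4.601 CPM in DAC, 8.702, 8.67 and 7.04 CPM in TPL, against 9.13, 9.57 and 7.69 CPM in Ctrl. The 3 DACTPL values of CSF2RA lay below the 3 DAC values, which was not so for IL17RE. IL31RA, the IL-31 receptor chain, had 10.04, 9.04 and 9.87 CPM in DACTPL, 10.1, 12.3 and 10.7 CPM in DAC, 17.4, 16.3 and 13.7 CPM in TPL, against 15.9, 16.5 and 15.4 CPM in Ctrl. It likewise had all 3 DACTPL values below all 3 DAC values. SLFN5, a Schlafen protein of the interferon response, averaged 42.05 ± 3.32 CPM in DACTPL, 40.7 ± 3.78 in DAC, 61.1 ± 1.33 in TPL and 63.5 ± 2.67 in Ctrl. Its TPL and Ctrl values overlapped. CD22, an inhibitory receptor of B cells, averaged 1.94 ± 0.32 CPM in DACTPL, 2.32 ± 0.28 in DAC, 3.21 ± 0.28 in TPL and 3.41 ± 0.62 in Ctrl. SLAMF7, a receptor of plasma and natural killer cells, averaged 6.14 ± 0.27 CPM in DACTPL, 6.49 ± 0.56 in DAC, 9.902 ± 0.73 in TPL and 9.42 ± 1.07 in Ctrl. UNC5CL, a death-domain protein that activates NF-kappa B in epithelial cells, averaged 3.58 ± 0.54 CPM in DACTPL, 3.21 ± 0.88 in DAC, 6.44 ± 2.04 in TPL and 5.72 ± 0.92 in Ctrl. Beside CD22 and SLAMF7, 4 of 18 blood and macrophage markers had no counts in any library, HBA1, HBB, MS4A1 (a B-cell marker) and NKG7 (a natural killer marker). The others had counts, and CD68, a macrophage marker, made up most of their sum. The list's summed level is given with the other markers, and its part in the values of CD22 and SLAMF7 was not tested.

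Adhesion, matrix and polarity were represented by 3 members. LAMA2, the alpha chain of the laminins of muscle basement membrane, had 3.201, 3.86 and 3.05 CPM in DACTPL, 4.53, 3.87 and 4.14 CPM in DAC, 5.37, 5.32 and 4.65 CPM in TPL, against 6.34, 7.01 and 6.49 CPM in Ctrl. It was lower in all 3 TPL libraries than in all 3 Ctrl libraries, and in all 3 DACTPL than in all 3 DAC libraries. ITGB3, the integrin beta 3 chain, averaged 17.7 ± 1.34 CPM in DACTPL, 15.6 ± 4.06 in DAC, 25.3 ± 3.92 in TPL and 25.1 ± 4.46 in Ctrl, and PRICKLE2, a planar polarity protein, averaged 5.7001 ± 0.54 CPM in DACTPL, 4.496 ± 0.9995 in DAC, 7.83 ± 1.82 in TPL and 7.03 ± 0.78 in Ctrl. The members with enzymatic roles were PADI1, a peptidylarginine deiminase of epidermis, and DMGDH, the mitochondrial dimethylglycine dehydrogenase. PADI1 had 1.41, 1.64 and 1.27 CPM in DACTPL, 1.33, 2.04 and 1.35 CPM in DAC, 2.76, 3.13 and 2.42 CPM in TPL, against 4.06, 4.195 and 3.19 CPM in Ctrl. Its TPL values lay between those of the decitabine groups and Ctrl, with no overlap. DMGDH averaged 1.03 ± 0.27 CPM in DACTPL, 1.096 ± 0.20 in DAC, 1.79 ± 0.26 in TPL and 2.03 ± 0.28 in Ctrl.

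The nuclear regulators were TRNP1, a nuclear factor described in mouse as controlling progenitor division in the cortex, and FOXL1, a forkhead factor known in the mouse gut mesenchyme. TRNP1 had 172, 153 and 171 CPM in DACTPL, 205, 213 and 192 CPM in DAC, 305, 314 and 285 CPM in TPL, against 275, 291 and 301 CPM in Ctrl. This was the most abundant member, and DACTPL lay below DAC while TPL and Ctrl overlapped. FOXL1 averaged 2.02 ± 0.18 CPM in DACTPL, 2.01 ± 0.33 in DAC, 3.26 ± 0.75 in TPL and 3.77 ± 0.28 in Ctrl. Of the genes of calcium, muscle and hormone signalling, CALB2 (calretinin, a calcium buffer) averaged 3.91 ± 0.81 CPM in DACTPL, 3.64 ± 0.27 in DAC, 7.31 ± 1.68 in TPL and 8.001 ± 1.23 in Ctrl. TNNI3, the cardiac troponin I, averaged 3.42 ± 0.45 CPM in DACTPL, 3.78 ± 0.27 in DAC, 5.26 ± 0.31 in TPL and 5.99 ± 0.83 in Ctrl, and OXTR, the oxytocin receptor, averaged 2.596 ± 0.43 CPM in DACTPL, 2.65 ± 0.45 in DAC, 3.69 ± 0.81 in TPL and 4.495 ± 0.44 in Ctrl. All of these overlapped between TPL and Ctrl. The remaining 6 are little described or unnamed: FAM228B averaged 4.0003 ± 0.18 CPM in DACTPL, 3.99 ± 0.22 in DAC, 6.47 ± 0.82 in TPL and 5.15 ± 0.37 in Ctrl, and ANXA2R, a receptor for annexin 2, averaged 10.3 ± 0.79 CPM in DACTPL, 10.9 ± 0.29 in DAC, 15.6 ± 0.90 in TPL and 15.005 ± 0.91 in Ctrl. LOC100130093, an unnamed gene model, averaged 2.1998 ± 0.11 CPM in DACTPL, 2.09 ± 0.20 in DAC, 4.62 ± 0.24 in TPL and 3.905 ± 0.35 in Ctrl. C10orf55 averaged 2.77 ± 0.037 CPM in DACTPL, 2.799 ± 0.40 in DAC, 4.26 ± 0.45 in TPL and 3.95 ± 0.25 in Ctrl, and C2orf15 averaged 2.55 ± 0.32 CPM in DACTPL, 2.54 ± 0.24 in DAC, 3.65 ± 0.38 in TPL and 3.77 ± 0.085 in Ctrl. KIAA1211L, near the threshold of the rule, averaged 1.67 ± 0.35 CPM in DACTPL, 1.65 ± 0.064 in DAC, 2.495 ± 0.30 in TPL and 2.26 ± 0.14 in Ctrl.

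**Figure D3:**
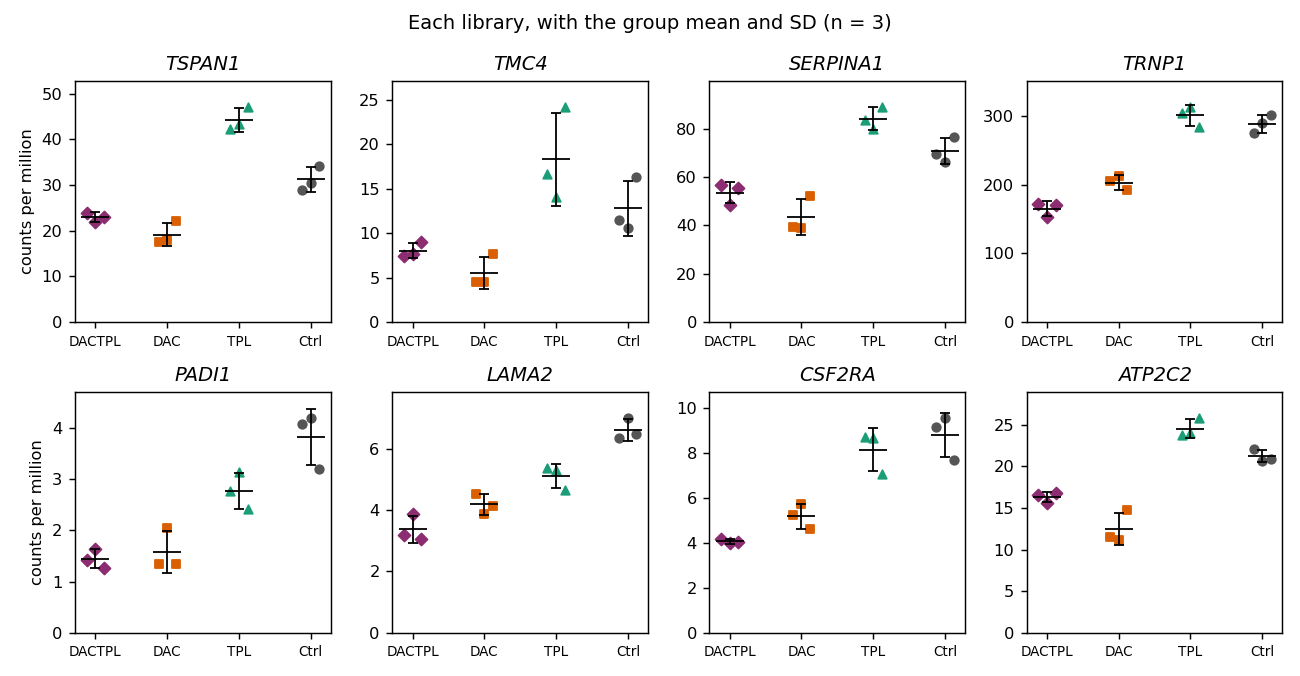
CPM of 8 members in each library by group, with group mean and SD (n = 3, linear axes from 0). ATP2C2 has all 3 DACTPL values above all 3 DAC values, TRNP1, LAMA2 and CSF2RA have them below, and TSPAN1 has its highest values (42.3 to 47.1 CPM) in TPL.

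Triptolide without and with decitabine was compared with edgeR's quasi-likelihood test, with Benjamini-Hochberg adjustment over all 15890 genes and a call at an adjusted p below 0.05. These comparisons were not the ones that chose the members, but the rule still limits them. No TPL or Ctrl library could fall to the decitabine level, and no DACTPL or DAC library could rise to the level of the others. The same limits bear on the interaction. In TPL vs Ctrl, 1 of the 38 members was called higher, TSPAN1, and 0 lower, where 1.68% of all tested genes were called higher and 0.787% lower. The share of members, 2.63%, was thus near the background in this fit, which had no replicate block. With a replicate block, an alternative described below, edgeR called 9 members higher and 0 lower. Over all 15890 genes that alternative called 824 higher and 464 lower. TSPAN1 had a log2 fold change of 0.58 (SE 0.09) with an edgeR adjusted p of 0.012, but the adjusted p was 0.095 without Ctrl replicate 1 and 0.088 without Ctrl replicate 2. At an unadjusted p below 0.05 there were 12 members higher and 1 lower. The share of all genes at that unadjusted threshold was not counted, here or below, so these counts cannot be set against a background. DESeq2 called FAM228B higher besides TSPAN1. The next nearest to a call by edgeR were FAM228B at 0.41 (SE 0.10) with an edgeR adjusted p of 0.0598, and ATP2C2 at 0.29 (SE 0.09) with an edgeR adjusted p of 0.122.

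The members' median log2 fold change in TPL vs Ctrl was 0.14 beside -0.00034 for all genes, and 28 of the 38 had a positive value. In the edgeR fit, all 7 genes of membrane and vesicle traffic had a positive value (0.10 to 0.59), as did 6 of the 7 secreted proteins. The values of both enzymes and of the 3 calcium, muscle and hormone genes were below 0. The roles were assigned after the values were seen and some groups are small, so these splits are descriptions with no test. LAMA2 at -0.29 (SE 0.11) and PADI1 at -0.38 (SE 0.17) were the lowest, with edgeR adjusted p of 0.165 and 0.265. The sign of the members' median depended on the scale: on log2(TPM + 1) it was -0.19 beside -0.29 for all genes, a shift of the whole TPL group in that unit, and after rescaling TPM by size factors it was 0.06 beside -0.04. On each of these scales the members' median lay above that of all genes.

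In DACTPL vs DAC, edgeR with all 12 libraries and no replicate block called 0 members higher and 0 lower. Of all genes, 0.0189% were called higher and 0.0126% lower. With the block, it called 5 members higher and 1 lower, beside 266 higher and 314 lower of all 15890 genes. At an unadjusted p below 0.05, with no share of all genes counted, 6 members were higher and 3 lower. DESeq2 called ATP2C2 higher and TRNP1 lower. ATP2C2 had a log2 fold change of 0.40 (SE 0.10) with an edgeR adjusted p of 0.225, and TRNP1 one of -0.28 (SE 0.06) with an edgeR adjusted p of 0.212. The largest values were those of PSG3 at 0.62 (SE 0.21) and TMC4 at 0.53 (SE 0.28), and the lowest those of CSF2RA at -0.32 (SE 0.12) and LAMA2 at -0.30 (SE 0.11); none of the 4 passed the threshold. The members' median was 0.07 beside 0.01 for all genes, and 0.17 without DAC replicate 3.

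The interaction asks whether the decitabine difference was the same with and without triptolide (DACTPL minus TPL, less DAC minus Ctrl). edgeR called 0 members higher and 0 lower, where 0.00629% of all genes were called higher and 0% lower. At an unadjusted p below 0.05, again with no share of all genes counted, there were 0 members higher and 3 lower. DESeq2 called 1 member lower, TRNP1. For TRNP1 the interaction was -0.42 (SE 0.09) with an edgeR adjusted p of 0.154, its difference being -0.91 (SE 0.06) in DACTPL vs TPL and -0.49 (SE 0.06) in DAC vs Ctrl. FAM228B, at -0.39 (SE 0.15), had an edgeR adjusted p of 0.25. LAMA2, with values below 0 in both triptolide comparisons, had an interaction of -0.0045 (SE 0.15), and SERPINA1, with values above 0 in both, had one of -0.01 (SE 0.15); neither passed the test.

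**Figure D4:**
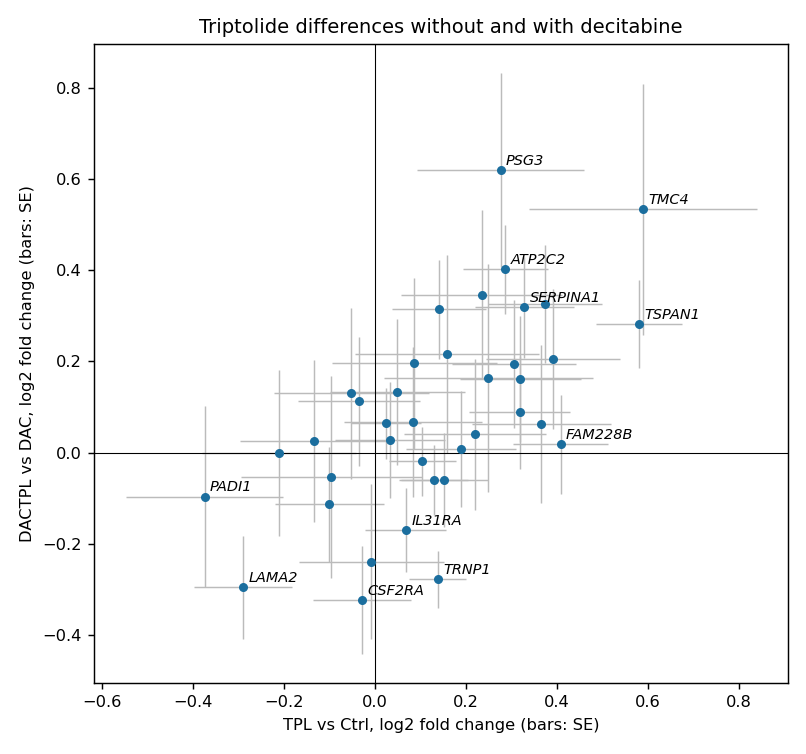
Fitted log2 fold change of each of the 38 members in TPL vs Ctrl (horizontal) and in DACTPL vs DAC (vertical), with standard errors as bars. Most lie right of 0, and TSPAN1 (0.58 in TPL vs Ctrl) is the only one edgeR called with all 12 libraries and no replicate block. TRNP1 lies at 0.14 in TPL vs Ctrl and -0.28 in DACTPL vs DAC.

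The authors' deposited table of TPL vs Ctrl gave an adjusted p below 0.05 to 2 members, FAM228B and TSPAN1. The authors' deposited table of DACTPL vs DAC gave one to ATP2C2 and TRNP1. In the authors' deposited tables of DACTPL vs TPL and of DAC vs Ctrl, 35 of the 38 had a lower value at that threshold in each. These comparisons use the same libraries and the same differences that chose the members. The count was therefore nearly fixed in advance and is only a description. The share of all genes under that threshold was not counted in any of the authors' tables. None of these member counts can therefore be set against a background.

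Receptor chains, partners and relatives of the members were listed after the members were known, 109 genes of which 84 were tested and were not members. In DACTPL vs TPL, edgeR called 11 of these higher and 5 lower, where 6.93% of all genes were called higher and 3.59% lower. In DAC vs Ctrl, 10 were called higher and 8 lower, where 6.27% of all genes were called higher and 3.59% lower. Partners of the immune receptors were mostly not called. IL17RA, which pairs with IL17RE, averaged 41.8 ± 0.81 CPM in DACTPL, 41.7 ± 3.97 in DAC, 40.6 ± 2.58 in TPL and 42.8 ± 1.88 in Ctrl. Its log2 fold changes were -0.00 (SE 0.08) in DACTPL vs TPL and -0.02 (SE 0.08) in DAC vs Ctrl, beside -1.21 (SE 0.16) in DACTPL vs TPL and -0.91 (SE 0.16) in DAC vs Ctrl for IL17RE. OSMR, which pairs with IL31RA, averaged 840.2 ± 127 CPM in DACTPL, 663 ± 94.1 in DAC, 742 ± 112 in TPL and 745 ± 38.4 in Ctrl, and passed the test in neither comparison. CSF2RB, the signalling chain that CSF2RA needs, had no counts in any library.

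Several relatives went up where the member was down, and others were lower with it. PADI2 and TMC5 were called lower in DAC vs Ctrl alone, and LY9 and TSPAN15 in DACTPL vs TPL alone. The relatives detailed below were named after their values were seen. UNC5B, a netrin receptor related to UNC5CL, averaged 3.83 ± 0.22 CPM in DACTPL, 4.14 ± 0.19 in DAC, 1.07 ± 0.23 in TPL and 1.18 ± 0.25 in Ctrl. Its log2 fold changes were 1.78 (SE 0.17) in DACTPL vs TPL and 1.79 (SE 0.16) in DAC vs Ctrl, with edgeR adjusted p of 2.39e-05 and 1.47e-05, beside -0.90 (SE 0.24) in DACTPL vs TPL and -0.81 (SE 0.24) in DAC vs Ctrl for UNC5CL. ILDR2 averaged 2.52 ± 0.28 CPM in DACTPL, 2.27 ± 0.073 in DAC, 0.612 ± 0.075 in TPL and 0.628 ± 0.057 in Ctrl. It changed by 1.99 (SE 0.16) in DACTPL vs TPL and 1.88 (SE 0.16) in DAC vs Ctrl, with edgeR adjusted p of 5.35e-06 and 7.67e-06, beside -0.60 (SE 0.21) in DACTPL vs TPL and -0.66 (SE 0.21) in DAC vs Ctrl for ILDR1. Of the integrin beta chains, ITGB5 changed by 0.65 (SE 0.06) in DACTPL vs TPL and 0.48 (SE 0.06) in DAC vs Ctrl and ITGB8 by 0.84 (SE 0.10) in DACTPL vs TPL and 0.59 (SE 0.10) in DAC vs Ctrl, each called higher in both comparisons by edgeR. ITGB3 had -0.56 (SE 0.19) in DACTPL vs TPL and -0.67 (SE 0.18) in DAC vs Ctrl, while ITGAV, the alpha chain that pairs with all of these, was not called in either comparison.

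Among the troponins, TNNT1, which lies beside TNNI3 and encodes the slow skeletal troponin T, averaged 15.3 ± 0.49 CPM in DACTPL, 18.2 ± 2.32 in DAC, 22.8 ± 4.39 in TPL and 25.1 ± 2.03 in Ctrl. It was called lower in both comparisons, by -0.61 (SE 0.13) in DACTPL vs TPL and -0.44 (SE 0.12) in DAC vs Ctrl, with edgeR adjusted p of 0.00774 and 0.0393. TNNC1, the troponin C of slow and cardiac muscle, was called higher in both, by 0.82 (SE 0.12) in DACTPL vs TPL and 1.15 (SE 0.11) in DAC vs Ctrl. SLFN11, a neighbour of SLFN5, was called lower in both, by -0.22 (SE 0.06) in DACTPL vs TPL and -0.30 (SE 0.06) in DAC vs Ctrl, whereas SLFN12 was not called in either. APOC1, the gene next to APOE, averaged 14.7 ± 1.32 CPM in DACTPL, 14.6 ± 0.31 in DAC, 11.4 ± 1.1 in TPL and 8.88 ± 1.36 in Ctrl and was called higher in DAC vs Ctrl alone, at 0.72 (SE 0.11). ABCA1, which exports lipid to APOE, was called higher in both, by 0.34 (SE 0.07) in DACTPL vs TPL and 0.43 (SE 0.07) in DAC vs Ctrl. The difference between each member and its relative was not tested.

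**Figure D5:**
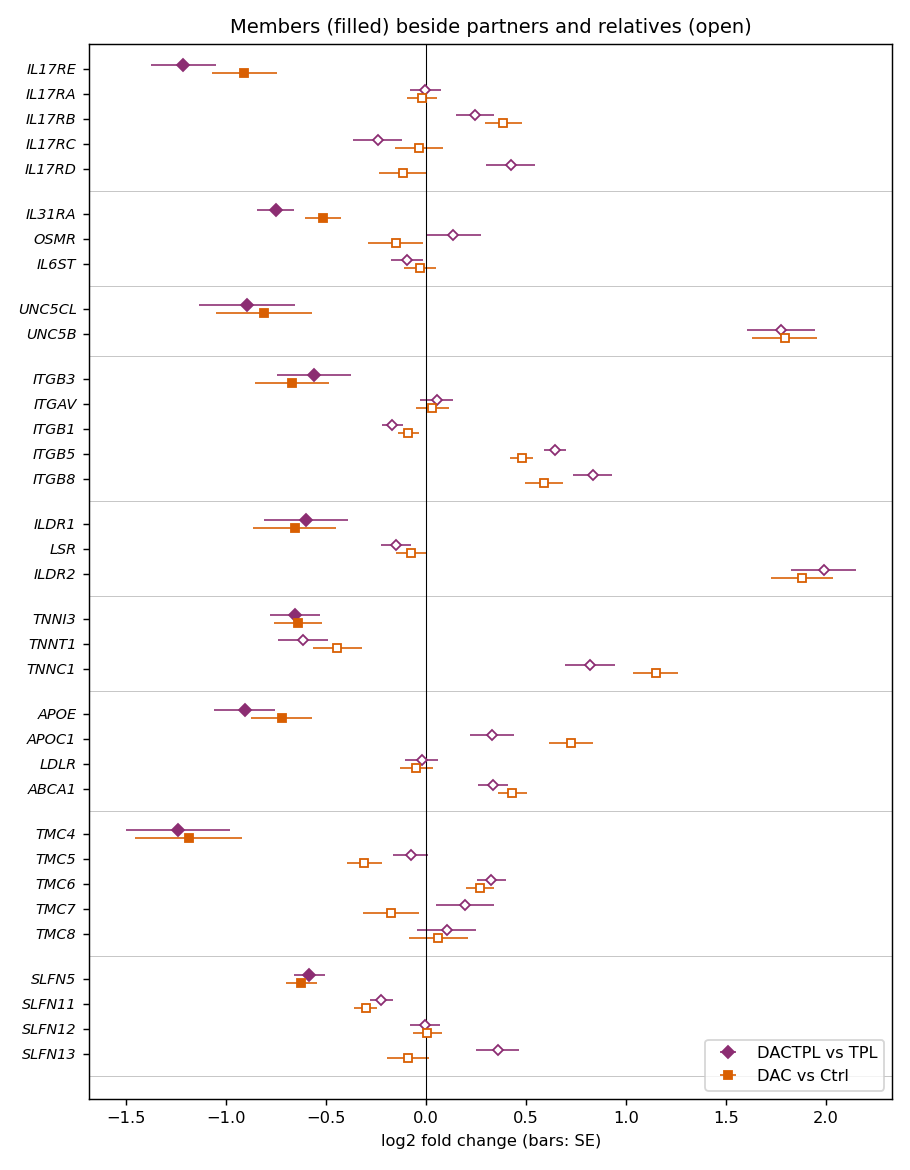
Log2 fold changes with standard errors in DACTPL vs TPL (diamonds) and DAC vs Ctrl (squares) for 9 members (filled, chosen by these values) and selected partners or relatives (open). UNC5B and ILDR2 lie between 1.78 and 1.99, opposite to UNC5CL and ILDR1.

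Longer lists of the same pathways, drawn up with earlier results of these data known, held 7 members. The counts below stand beside 6.93% of all tested genes called higher and 3.59% lower in DACTPL vs TPL. In DAC vs Ctrl these shares were 6.27% and 3.59%. The list of integrins, laminins and basement membrane held ITGB3 and LAMA2. Of its 44 other tested genes, 17 were called higher and 1 lower in DACTPL vs TPL, and 16 higher and 0 lower in DAC vs Ctrl by edgeR. VTN (vitronectin) led it, with log2 fold changes of 2.58 (SE 0.28) in DACTPL vs TPL and 2.81 (SE 0.27) in DAC vs Ctrl, and the lower one was ITGB2 at -0.29 (SE 0.08) in DACTPL vs TPL. Extracellular proteases and inhibitors held SERPINA1 and PRSS22, and of 65 others 16 were called higher and 1 lower in DACTPL vs TPL, and 16 higher and 4 lower in DAC vs Ctrl. PLAT (tissue plasminogen activator) was called higher at 1.80 (SE 0.17) in DACTPL vs TPL and 2.05 (SE 0.17) in DAC vs Ctrl, and PLAU (urokinase) lower at -0.55 (SE 0.09) and -0.43 (SE 0.09) in the same comparisons. Epidermal genes and deiminases held PADI1, and of 28 others 4 were called higher and 3 lower in DACTPL vs TPL, and 3 higher and 3 lower in DAC vs Ctrl. EF-hand proteins held CALB2, with 3 higher and 2 lower of 35 others in DACTPL vs TPL, and 5 higher and 1 lower in DAC vs Ctrl. Lipid handling held APOE, with 10 higher and 0 lower of 61 others in DACTPL vs TPL, and 8 higher and 5 lower in DAC vs Ctrl.

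On the reference assembly the 37 members with a RefSeq match lay on 16 chromosomes, with at most 5 on any (chromosomes 1 and 19). Of the 73 nearest tested genes on either side that were not members, 8 were called lower and 2 higher in DACTPL vs TPL, and 6 lower and 3 higher in DAC vs Ctrl by edgeR. Over all tested genes, 3.59% were called lower and 6.93% higher in DACTPL vs TPL, and 3.59% lower and 6.27% higher in DAC vs Ctrl. The neighbours called lower in both were EFCAB13 beside ITGB3, PLAU beside C10orf55, SLFN11 and TNNT1. C10orf55 overlaps PLAU, which averaged 646 ± 30.3 CPM in DACTPL, 723 ± 49.7 in DAC, 919.7 ± 139 in TPL and 987 ± 63.2 in Ctrl, and as the strand setting of the counting is not given, their reads cannot be told apart. The same holds for C2orf15 with TSGA10, FAM228B with PFN4 and TP53I3, TSPAN1 with POMGNT1, OXTR with CAV3 and ILDR1 with CD86. It also holds for ANXA2R with LOC648987 and LOC153684, and for PRICKLE2 with PRICKLE2-AS3. Further members overlap other annotated genes on the reference. MST1, near-identical to MST1L, was called lower in DAC vs Ctrl at -0.54 (SE 0.11) and not in DACTPL vs TPL, at -0.34 (SE 0.12) with an edgeR adjusted p of 0.0771. MST1P2, also near-identical, was called lower in DAC vs Ctrl at -0.44 (SE 0.09) and not in DACTPL vs TPL, at -0.16 (SE 0.09) with an edgeR adjusted p of 0.308.

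Within groups, the members varied with a mean coefficient of variation from 5.23% (TRNP1) to 24.0% (TMC4), and libraries of a group differed across many members together. DAC replicate 3 was the highest of its group for 23 of the 38, and DAC replicate 1 the lowest for 18. Replicate 3 was the highest in DAC, TPL and Ctrl alike for 12 members (31.6%), against 17.6% of all genes at 2 CPM or more. These were TMC4, TSPAN1, TMEM45B, SYTL2, SERPINA1, APOE, VSTM2L, MST1L, ITGB3, PRICKLE2, UNC5CL and KIAA1211L. It was the lowest in those groups for CSF2RA, DMGDH, OXTR, TNNI3 and BSPRY (13.2%, against 26.2% of all). Leaving out DAC replicate 3 gave 40 genes by the rule, with all 38 among them. Leaving out TPL replicate 3 gave 59, with 34 of the 38 among them.

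The cells' markers were compared beside these values. The summed level of 10 epithelial markers was 1522 to 1555 CPM in DACTPL, 1407 to 1485 CPM in DAC, 1636 to 1705 CPM in TPL and 1586 to 1657 CPM in Ctrl. The decitabine groups thus lay below the others without overlap, by less than the members did. EPCAM, an epithelial adhesion molecule, averaged 115 ± 5.51 CPM in DACTPL, 110.0 ± 2.58 in DAC, 137 ± 3.03 in TPL and 128 ± 3.15 in Ctrl. CDH1 (E-cadherin) averaged 263 ± 7.40 CPM in DACTPL, 246 ± 11.8 in DAC, 253 ± 11.04 in TPL and 259 ± 4.98 in Ctrl, with overlap. The 18 blood and macrophage markers summed to 42.5 to 44.7 CPM in DACTPL, 37.8 to 47.6 in DAC, 52.3 to 58.5 in TPL and 53.2 to 56.8 in Ctrl. The sums of the decitabine groups thus lay below the others. CD68, a lysosomal macrophage marker, made up most of that sum, with 27.99 ± 1.08 CPM in DACTPL, 28.2 ± 0.85 in DAC, 37.8 ± 5.64 in TPL and 39.6 ± 2.07 in Ctrl. The list did not move as one. PTPRC (CD45), the pan-leukocyte marker, was under 1 CPM in every group but higher with decitabine. It averaged 0.62 ± 0.16 CPM in DACTPL, 0.61 ± 0.086 in DAC, 0.15 ± 0.065 in TPL and 0.22 ± 0.0998 in Ctrl. Of the 6 tested markers of the list, edgeR called 1 higher and 1 lower in each decitabine comparison. The 14 stromal markers summed to 659 to 718 CPM in DACTPL, 745 to 822 in DAC, 646 to 768 in TPL and 745 to 775 in Ctrl. VIM made up most of that sum, with 672 ± 30.2 CPM in DACTPL, 769 ± 38.1 in DAC, 714 ± 67.0 in TPL and 747 ± 15.3 in Ctrl. Of the 6 tested stromal markers, edgeR called 3 higher and 0 lower in each decitabine comparison, which the sum does not show. The 10 luminal prostate markers summed to 86.1 to 95.9 CPM in DACTPL, 76.1 to 83.0 in DAC, 73.2 to 89.7 in TPL and 76.0 to 81.5 in Ctrl. The sums of the stromal and luminal lists overlapped between groups with and without decitabine. FOLH1, a defining luminal marker, had no counts. The part of the differences in the marker sums in the members' values was not tested.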

How the data were processed

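Stranded total RNA libraries of 12 DU145 samples (4 groups of 3) were read in pairs of 100 bases, as the labels' protocols state. The submitters' processing notes name RSEM 1.2.09 and hg19, and the authors deposited the resulting expected counts and TPM per gene. The authors' deposited comparisons hold log2 fold changes and p-values, for which the notes name DESeq2 and R 4.0.4. A further table of the authors' holds a score (z-score) per gene and library, deposited by the authors, of which only the list of genes was used. Aligner, annotation and strand setting are not given in the sources used here. Expected counts divide reads between genes, and 64.3% lay within 0.005 of a whole number.

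CPM used column sums. Rounded expected counts were tested with edgeR 4.0.16 (R 4.3.3): TMM (factors 0.957 to 1.028), filterByExpr, robust glmQLFit on the 12 libraries together, two-sided glmQLFTest, and adjustment by Benjamini-Hochberg across 15890 genes; the fit was checked on simulated counts. Standard errors are the log2 fold change over the root of F. Alternatives used limma 3.58.1 and DESeq2 1.42.0. The members, lists, roles and partners were chosen with earlier results of these data known. Genes named were, by rule, the 20 lowest ratios, the 10 most abundant in Ctrl, called members, members in a list, and 3 either side of the ratio threshold. Up to 3 called genes could be named from each list, and other members, partners and neighbours were named after their values were seen. The reference assembly (GRCh38.p14, GENCODE 29 transcripts) is not hg19 and served for names, neighbours and sequences; 37 of 38 members matched RefSeq. Some results, those of 1 member among them, are not reported here.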

Additional observations from a re-analysis of the deposited data

How the results depend on the processing

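By the rule, 43 genes met it with TMM-scaled CPM (all 38 among them), 28 with deposited TPM (26 shared) and 41 with TPM over size factors (37 shared). A ratio of 0.6 gave 14, a ratio of 0.8 gave 120, a Ctrl minimum of 5 CPM gave 24, and leaving out 1 library gave 36 to 59, the highest without TPL replicate 3. In TPL vs Ctrl edgeR called 392 genes and 1 member, against 867 and 2 by DESeq2, 10831 and 16 by limma on log2(TPM + 1), 10907 and 15 on log2(TPM + 0.1), and 25 to 930 and 0 to 3 without 1 library. The split was 267 higher and 125 lower by edgeR, 49 higher and 10782 lower on log2(TPM + 1), and 75 higher and 214 lower on rescaled TPM, which was added after seeing the data. In DACTPL vs DAC there were 5 genes and 0 members, against 84 and 2 by DESeq2, 1 gene on log2(TPM + 0.1), and 0 to 11 and 0 to 1 without 1 library. The interaction had 1 gene and 0 members, against 8 genes without the filter, 118 and 1 by DESeq2, 5098 and 3 on log2(TPM + 1), 5103 and 2 on log2(TPM + 0.1), 0 genes on rescaled TPM, and 0 to 950 and 0 to 1 without 1 library. DACTPL vs TPL had 1671 genes (1101 higher, 570 lower), against 5639 (5503 higher, 136 lower) on log2(TPM + 1), 5786 on log2(TPM + 0.1) and 955 to 3285 without 1 library, and rescaled TPM gave 1034 higher and 328 lower. DAC vs Ctrl had 1566 (996 higher, 570 lower), against 753 to 2345 without 1 library, and 521 higher and 1318 lower on log2(TPM + 1). The cause of these differences was not tested. TSPAN1 in TPL vs Ctrl kept its sign under all 19 alternatives and its call under 15.

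The labels tie no replicate number to a shared batch or day, and deviations of same-numbered libraries correlated from -0.19 to 0.52, with 12 of 18 pairs over 0.1, among them all 6 pairs of replicates 3 (0.14 to 0.52), against 10 of 36 pairs of other numbers. Of the 12 libraries, 6 correlated best on average with their own number. As not every same-numbered pair passed 0.1, the block was kept as an alternative. A replicate block gave 1288 genes and 9 members in TPL vs Ctrl (all higher: APOE, ATP2C2, FAM228B, SERPINA1, SYTL2, TMC4, TMEM45B, TSPAN1 and VSTM2L), 580 and 6 in DACTPL vs DAC (ATP2C2, SERPINA1, TMC4, TMEM45B and TSPAN1 higher, TRNP1 lower), 0 members in the interaction, 2574 in DAC vs Ctrl and 2579 in DACTPL vs TPL. Precision is limited by 3 libraries a group and, for PSG3, DMGDH, PADI1 and KIAA1211L, by counts of 20 to 40 in the lowest library.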

Other observations

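With TMM-scaled CPM in place of CPM, the genes gained were CA11, COMMD3-BMI1, CPNE5, IL1RL1 and TMEM156. With the Ctrl minimum at 1 CPM, the genes gained included ABCC11, DPCR1, FCGR2A, HP, KLRF1, RP1, SBSN and SYT8, with no test of either list.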
